A study of Mus musculus with 6 samples.

Results

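Matrix metalloproteinases (MMPs), ADAMs, ADAMTS enzymes, ADAMTS-like proteins and the tissue inhibitors of metalloproteinases (TIMPs) were examined in the sciatic nerve of newborn mice. The genes were chosen by symbol alone, as every row of the table named Mmp, Adam, Adamts, Adamtsl or Timp with a number. This rule gave 81 of 59485 genes, of which 23 were *Mmp*, 30 *Adam*, 19 *Adamts*, 5 *Adamtsl* and 4 *Timp* genes. RNA was sequenced from nerves of 3 control and 3 mutant animals at postnatal day 4 (P4), with 1 library each, to compare gene expression with and without ADAR1 in neural crest (NC) derivatives. The control libraries carry the label wild-type, a name that the study gives to animals with floxed *Adar* alleles and the R26R reporter but no Cre. The mutant label is Ht-PA-Cre; Adar1fl/fl;R26R, where Cre is driven by the promoter of human tissue plasminogen activator and removes the floxed segment of *Adar* in NC cells, among them the precursors of Schwann cells (SCs), and R26R is a YFP tracer. Nerve cells of other origin, such as endothelial and blood cells, keep the floxed gene. The floxed line was B6.129-Adartm1knk/Mmjax, and both groups carry its alleles.

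Each value is a normalized read count, that is, the reads counted on the constitutive regions of a gene divided by 1 size factor per library. Values are given in the order of replicates 1 to 3, and they allow comparison of a gene between libraries but not of different genes, since they are not scaled by gene length. The targeted gene *Adar* had 1602, 2066 and 1133 in the libraries labelled control and 11768, 9311 and 9773 in those labelled mutant (log2 fold change 2.72, SE 0.20, adjusted p = 4.1e-05). The label names a deletion, and a rise of the gene goes against it, although the table cannot separate reads of the deleted segment from those of the remaining exons. Libraries are therefore named as control-labelled or mutant-labelled, and each direction given rests on the labels. Between 50.9 and 78.3 M reads per library fell on genes. Libraries of a group correlated across genes at 0.941 to 0.951 on the log2 scale, and libraries of different groups at 0.855 to 0.884. A whole nerve holds many cell types, so that fewer cells of a type and less RNA per cell cannot be told apart.

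MMPs are zinc-dependent proteinases that cleave collagens and other components of the extracellular matrix, and TIMPs block them. ADAMs are membrane proteins, some of which release the outer part of growth factors, cytokines and receptors from the cell surface, a step known as shedding, whereas others have lost the proteinase site and act as receptors. ADAMTS enzymes are secreted and cleave proteoglycans or procollagens, and in a nerve these proteins act on the basal lamina of SCs, on the endoneurial matrix and on the signals exchanged by axons and SCs.

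Of the 81 genes, 17 were listed at 0 in every library and 60 reached a mean of at least 10 in at least 1 group and were tested. The threshold was set at a change of 2-fold or more with an unadjusted p of at most 0.05 in limma's moderated test on log2(value + 1). It was passed by 24 of the 60 genes (40%), against 24.2% of the 25802 genes tested in the whole table. Of these, 15 were higher in the mutant-labelled libraries (25%, against 13.9% of all tested genes) and 9 were lower (15%, against 10.4%). Of the higher genes, *Mmp12*, *Mmp13* and *Mmp27* reached the mean of 10 only through the mutant-labelled group. When the adjusted p also had to be at most 0.05, 12 were higher and 9 lower, and of all tested genes 19.9% passed, 11.5% higher and 8.46% lower. The median log2 fold change of the 60 genes was 0.14, and that of all tested genes was 0.03. In 37 of the 60 genes the 3 values of a group all lay on 1 side of the other 3, a state found for 49.2% of all tested genes, and this held for 23 of the 24 called genes, *Mmp27* being the exception. The groups of function described next hold at most 10 tested genes each, so a single gene moves their shares by 10 percentage points or more.

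**Figure D1:**
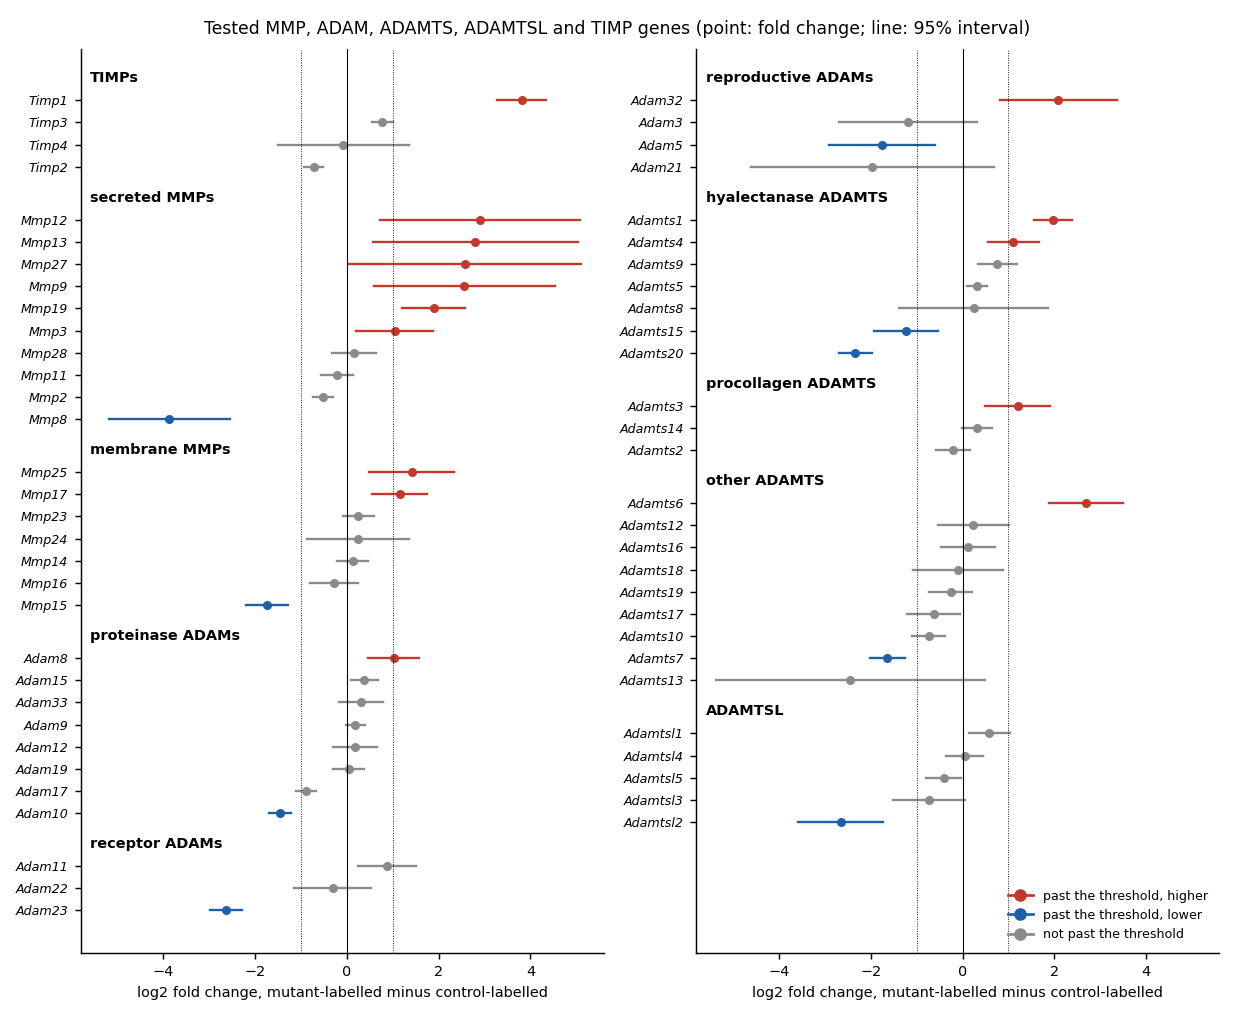
Log2 fold change (mutant-labelled minus control-labelled) of the 60 tested genes on the x axis, by group of function, with points for the estimate, lines for its 95% interval and dotted lines at a 2-fold change. Red points are the 15 genes past the threshold and higher, blue points the 9 past it and lower, and *Timp1* (3.81) and *Mmp8* (-3.87) lie farthest from 0.

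Markers of other cell types moved between the groups as well. SC markers were lower in 6 of 9 genes, with a summed value of 3.59 to 4.40 M in the control-labelled and 0.110 to 0.540 M in the mutant-labelled libraries. In the mutant-labelled libraries skeletal muscle markers were higher in 8 of 10 (sums 6965 to 35552 against 45284 to 333510), and T and NK cell markers in 4 of the 6 tested (106 to 217 against 350.1 to 484). Macrophage markers were higher in 1 and lower in 4 of 10 (21270.1 to 27325 against 20834 to 24618), and neutrophil markers were higher in 1 of the 8 tested (73.7 to 249.6 against 136 to 800.1), with *Ly6g* at 0 in every control-labelled library. Cartilage and bone markers were lower in 3 of 8 (13343 to 16204 against 2239 to 3025) and erythroid markers in 4 of 5. Fibroblast markers were lower in 2 of 7, perineurial and mast cell markers were each higher in 1 and lower in 1, of 5 and 6, and no endothelial, pericyte, adipocyte or B cell marker of the 8, 6, 5 and 4 tested passed the threshold. The part of these shifts in the values below was not tested.

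Among the TIMPs, *Timp1* rose 14.2-fold in the mutant-labelled libraries, while *Timp2* was lower and *Timp3* higher by less than 2-fold and *Timp4* passed no threshold. *Timp1* (GSMG0041633, mm10 chrX:20870166-20874735), whose product inhibits most secreted MMPs, had 735, 680.3 and 492 in the control-labelled and 6176, 11163 and 9830.4 in the mutant-labelled libraries. Its lowest mutant-labelled value was far above its highest control-labelled value, without any overlap (log2 fold change 3.81, SE 0.23, adjusted p = 1.6e-05). The gene lies within *Syn1*, which is on the opposite strand, and whether the counting used the strand is not given in the sources used here. *Syn1* itself had 109.9, 174 and 189 against 369, 299 and 226 and did not pass the 2-fold limit (log2 fold change 0.93).

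*Timp2*, which inhibits MMPs and also serves as the adaptor with which MMP14 activates the MMP2 precursor, had 49598, 51654 and 50303 in the control-labelled and 30084, 33604 and 28008 in the mutant-labelled libraries. Every mutant-labelled value was lower than every control-labelled value (log2 fold change -0.73, SE 0.09, adjusted p = 5.7e-04). *Timp3*, the inhibitor that binds to the matrix and also blocks ADAM17 and several ADAMTS enzymes, had 56792, 57324 and 59944 against 108013, 88216 and 101282 and was higher, again without overlap (log2 fold change 0.77, SE 0.10, adjusted p = 6.4e-04). *Timp4* had few reads, with 51.1, 22.7 and 15.2 against 30.6, 32.8 and 14.8, and its groups overlapped (log2 fold change -0.08, 95% interval -1.51 to 1.35).

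Secreted MMPs had 6 of 10 tested genes higher and 1 lower (60% and 10%, against 13.9% and 10.4% of all tested genes), with a median log2 fold change of 1.46. *Mmp19*, *Mmp9*, *Mmp12* and the lower *Mmp8* held after adjustment over all tested genes with limma, and *Mmp13*, *Mmp3* and *Mmp27* did not. With edgeR the adjusted p of *Mmp9* and *Mmp12* was 0.065 and 0.082. The 6 that rose were the gelatinase *Mmp9*, the macrophage elastase *Mmp12*, the collagenase *Mmp13*, the stromelysin *Mmp3*, *Mmp19* and *Mmp27*, and the one that fell was *Mmp8*, the collagenase known from neutrophils. *Mmp12*, *Mmp13* and *Mmp27* rested on few reads. *Mmp2*, *Mmp11* and *Mmp28* did not pass.

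*Mmp9* had 4.44, 48.2 and 63.4 in the control-labelled and 212, 125 and 129.6 in the mutant-labelled libraries. The control-labelled values were uneven, with replicate 1 far below the others, but all lay below the mutant-labelled ones (log2 fold change 2.56, SE 0.86, adjusted p = 0.049). Without that library the log2 fold change was 1.44, and without control-labelled replicate 3 it was 3.22. *Mmp19* rose from 199, 106 and 100.1 to 395, 523 and 525 (log2 fold change 1.89, SE 0.30, adjusted p = 0.0017). The groups did not overlap, and control-labelled replicate 1 was the highest of its group. *Mmp3*, which cleaves proteoglycans and activates other MMP precursors, rose 2.08-fold, from 44.4, 45.4 and 32.9 to 85.1, 100.3 and 70.2 (log2 fold change 1.04, SE 0.37, unadjusted p = 0.021, adjusted p = 0.057), with separate groups.

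*Mmp13* rested on 6, 0 and 8 reads in the control-labelled and 56, 24 and 28 in the mutant-labelled libraries, which gave normalized values of 6.66, 0 and 10.1 and 40.7, 23.2 and 27.7. The groups did not overlap, and control-labelled replicate 2 held no read at all (log2 fold change 2.80, SE 0.98, adjusted p = 0.055). The log2 fold change was 1.73 without that library and 3.47 without control-labelled replicate 3, and the gene did not pass with edgeR. *Mmp12* had 2, 0 and 0 reads in the control-labelled and 22, 8 and 8 in the mutant-labelled libraries. Summed over the libraries of a group and scaled, this is a ratio of 15.3 with a 95% counting interval of 3.94 to 130.5, and the log2 fold change was 2.89 (SE 0.95, adjusted p = 0.045 with limma and 0.094 with DESeq2). It depended on the pseudocount, at 5.14 with 0.1 and 0.92 with 10, where the call was lost. Macrophage markers, the usual setting of *Mmp12*, were higher in 1 and lower in 4 of 10 genes, as given above. *Mmp27* had 1.11, 15.1 and 0 against 10.9, 20.3 and 27.7, so that control-labelled replicate 2 exceeded mutant-labelled replicate 1 (log2 fold change 2.58, unadjusted p = 0.047, adjusted p = 0.11 with limma). With 1 library left out its log2 fold change ran from 1.73 to 3.74. On the recovered reads *Mmp27* did not pass with edgeR (unadjusted p = 0.20) or DESeq2 (unadjusted p = 0.19), and its call was lost under 12 alternatives, these included.

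*Mmp8* fell 12.9-fold, from 234, 181 and 161 in the control-labelled to 29.1, 9.65 and 5.93 in the mutant-labelled libraries (log2 fold change -3.87, SE 0.58, adjusted p = 0.0013). Even the highest mutant-labelled library, replicate 1, lay far below the lowest control-labelled one. Without replicate 1 of the mutant-labelled libraries the log2 fold change was -4.47. As given above, neutrophil markers were higher in 1 of the 8 tested and cartilage and bone markers lower in 3 of 8, and their part in the change of *Mmp8* was not tested.

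*Mmp2*, the gelatinase of fibroblasts and SCs, was lower by less than 2-fold. Its values were 28401, 25500.0 and 24639.6 in the control-labelled and 18789, 19307 and 16622 in the mutant-labelled libraries, without overlap (log2 fold change -0.52, SE 0.10, adjusted p = 0.0039). Of the other secreted MMPs, *Mmp11* and *Mmp28* had log2 fold changes of -0.22 and 0.15 with overlapping groups. *Mmp1a*, *Mmp1b*, *Mmp7* and *Mmp20* were listed at 0 throughout, and *Mmp10* and *Mmp21* had 8 and 2 reads in all, every one in the mutant-labelled libraries.

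Of 7 tested membrane-bound MMPs 2 were higher and 1 lower (28.6% and 14.3%, against 13.9% and 10.4% of all tested genes), with a median log2 fold change of 0.24. *Mmp14*, the transmembrane enzyme that activates the MMP2 precursor, had 42077, 42827 and 42136 in the control-labelled and 42280.4, 58889 and 39297 in the mutant-labelled libraries. Only mutant-labelled replicate 2 stood above the rest, and the log2 fold change of 0.12 had a 95% interval of -0.21 to 0.45. Among the genes of MMP2 activation, then, *Mmp2* and *Timp2* were lower by less than 2-fold and *Mmp14* showed no difference beyond the spread of the libraries. *Mmp15*, another transmembrane MMP, fell from 18054, 23955 and 23358 to 8955, 5565 and 5353 (log2 fold change -1.75, SE 0.20, adjusted p = 3.5e-04), and its groups were far apart. The GPI-anchored *Mmp17* rose from 239.9, 184.3 and 219 to 396, 695 and 389 (log2 fold change 1.15, SE 0.26, adjusted p = 0.010), with replicate 2 the highest of the mutant-labelled libraries. *Mmp25*, also GPI-anchored and known from leukocytes, rose from 48.9, 35.9 and 74.8 to 143, 184.3 and 96.9 (log2 fold change 1.41, SE 0.40, adjusted p = 0.026) and was likewise highest in mutant-labelled replicate 2. *Mmp16*, *Mmp23* and *Mmp24* had log2 fold changes between -0.29 and 0.25 and did not pass.

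**Figure D2:**
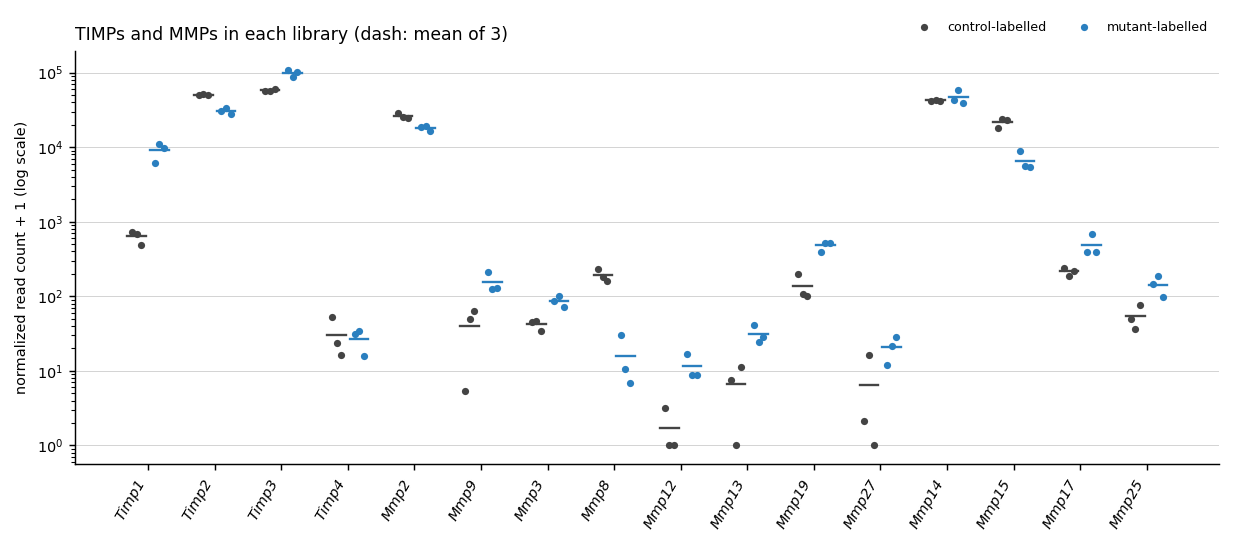
Normalized read count plus 1 (y axis, log scale) of the TIMPs and of the named MMPs in each library, with grey points for the 3 control-labelled libraries, blue points for the 3 mutant-labelled ones and a dash for the mean of each group. *Timp1* and *Mmp8* show the widest gaps, in opposite directions, and *Timp4*, *Mmp14* and *Mmp27* have overlapping groups.

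A run of 10 MMP genes lies within 427 kb of chromosome 9, from *Mmp13* to *Mmp7*. Of the secreted MMPs that held after adjustment with limma, it includes *Mmp12* and *Mmp8* but not *Mmp9* and *Mmp19*. Of its 5 tested genes *Mmp13*, *Mmp12*, *Mmp3* and *Mmp27* were higher and *Mmp8* was lower, where 13.9% and 10.4% of all tested genes were. *Mmp13*, *Mmp12* and *Mmp27* could be tested only through their mutant-labelled means, so the count is no result about the cluster. *Mmp13*, *Mmp3* and *Mmp27* did not hold after adjustment with limma. Neither *Mmp13* nor *Mmp27* passed with edgeR, and *Mmp27* did not pass with DESeq2. The 5 genes of the cluster that were not tested were *Mmp10*, with 8 reads in the mutant-labelled libraries, and the 4 genes at 0. RefSeq (GRCm38.p6) has a promoter entry, 250 bases before to 50 after the start, for all 10 of these genes and for 52 of the 81 genes in all. After the values had been seen, these promoters were searched on both strands for the AP-1 motif TGACTCA, for an interferon response element (GAAA, any 2 bases, GAAA) and for the CREB motif TGACGTCA, none of which contains another. The AP-1 letters were found in 7 of the 10 cluster genes, in 3 of the other 42 genes with an entry (*Adam1b*, *Adam19* and *Adam29*) and in 5.20% of the 32851 mouse promoters. The windows below are shown because they are the stretches of the cluster promoters that hold these letters, 5′ to 3′ on the strand of the gene with the match in capitals.
Mmp13: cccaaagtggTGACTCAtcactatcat
Mmp12: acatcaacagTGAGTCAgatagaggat
Mmp3: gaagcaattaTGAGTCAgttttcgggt
Mmp10: agcacccatgTGAGTCAtgcttagtga
Mmp1a: ttgtcaaccaTGAGTCAcatagcctct
Mmp1b: ttacaaagccTGAGTCAtatagcctct
Mmp7: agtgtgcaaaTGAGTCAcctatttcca
They lie at chr9:7272469-7272495, plus strand for *Mmp13*, chr9:7347320-7347346, plus strand for *Mmp12*, chr9:7445766-7445792, plus strand for *Mmp3*, chr9:7502269-7502295, plus strand for *Mmp10*, chr9:7464058-7464084, plus strand for *Mmp1a*, chr9:7388103-7388129, minus strand for *Mmp1b* and chr9:7692017-7692043, plus strand for *Mmp7*. For *Mmp12* the RefSeq start lies inside the gene as the table places it. Of these 7 genes, 3 were past the threshold and higher, 1 had reads in mutant-labelled libraries alone and 3 were at 0, whereas *Mmp8*, *Mmp27* and *Mmp20* had no such letters in the window. The interferon element occurred in 1 of the 57 promoters of these families, that of *Mmp13*, and in 3.44% of all promoters, and the CREB motif in none of the 57 and in 1.79% of all. Of the 24 genes past the threshold 15 had an entry, and *Mmp9* and *Mmp19* were among the 9 without one.

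**Figure D3:**
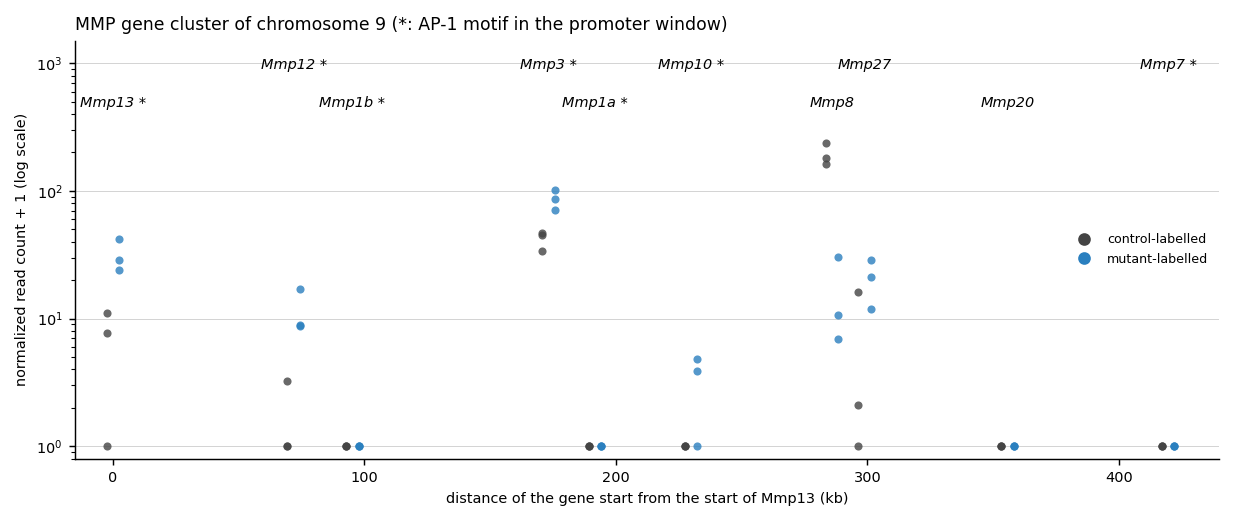
Normalized read count plus 1 (y axis, log scale) of the 10 MMP genes of chromosome 9 against the distance of each gene start from that of *Mmp13* (x axis, kb), with grey points for control-labelled and blue points for mutant-labelled libraries, drawn a little apart. Asterisks mark the 7 genes with the AP-1 letters in the promoter window. *Mmp8* is the gene in which the grey points lie on top.

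Of 8 tested ADAMs with a proteinase site *Adam8* was higher and *Adam10* lower, or 12.5% each, near the 13.9% and 10.4% of all tested genes. *Adam10* (GSMG0039766, mm10 chr9:70678982-70780227), a sheddase of Notch receptors, cadherins and growth factors, had 9535, 9611 and 9379.9 in the control-labelled and 3689, 3033 and 3717 in the mutant-labelled libraries. Both groups were tight, and the mean was 2.73-fold lower in the mutant-labelled libraries (log2 fold change -1.46, SE 0.10, adjusted p = 3.0e-05). *Adam17*, which sheds TNF and EGF receptor ligands and cleaves the neuregulin 1 that instructs SCs to myelinate, had 5142, 4784 and 4879 against 2789, 2418 and 2756. It was lower without overlap but missed the 2-fold limit (log2 fold change -0.90, SE 0.10, adjusted p = 2.5e-04). *Adam8*, a sheddase of immune cells, rose just past that limit, from 332, 222 and 271 to 537, 726 and 427 (log2 fold change 1.02, SE 0.24, adjusted p = 0.013), with replicate 2 the highest of the mutant-labelled libraries. *Adam15* was higher by less than 2-fold (log2 fold change 0.38, SE 0.13, adjusted p = 0.047). *Adam9*, *Adam12*, *Adam19* and *Adam33* had log2 fold changes between 0.04 and 0.31 and did not pass. *Adam28* had 18 reads in all, every one in the mutant-labelled libraries, and was too low to test.

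ADAMs that serve as receptors of LGI proteins differed among themselves. *Adam23* (GSMG0000362, mm10 chr1:63445889-63596100) fell from 11259, 13342 and 12207 in the control-labelled to 2515, 1657 and 1824 in the mutant-labelled libraries. The mean was 6.14-fold lower, with groups far apart (log2 fold change -2.64, SE 0.16, adjusted p = 1.4e-05). *Adam22*, the receptor through which LGI4 acts in peripheral myelination, had 113, 126 and 64.6 against 93.1, 81.0 and 63.3, with overlapping groups and a 95% interval of -1.15 to 0.53 on the log2 scale. *Adam11* was higher by less than 2-fold, with log2 fold change 0.87, SE 0.28, adjusted p = 0.040. It passed 2-fold, at 1.03, when libraries were scaled to the same total, and at 1.09 and 1.07 without control-labelled or mutant-labelled replicate 3. Of their ligands, *Lgi1* fell (log2 fold change -1.26, adjusted p = 8.3e-04) from 609.6, 574 and 549 to 209, 252 and 265. *Lgi4*, which SCs secrete, had 4437, 4318 and 5875 against 5301, 3492 and 4154 and did not pass, with a 95% interval of -0.58 to 0.22.

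Of the 18 ADAMs known mainly from testis and sperm, 13 were at 0 in every library and 4 were tested. *Adam5* fell from 203, 111 and 182 to 27.6, 97.4 and 37.6 (log2 fold change -1.75, SE 0.50, adjusted p = 0.027), mutant-labelled replicate 2 lying close to the lowest control-labelled value. *Adam32* rose from 22.2, 7.56 and 10.1 to 61.8, 43.4 and 60.3 (log2 fold change 2.09, SE 0.56, adjusted p = 0.020), without overlap. These neighbours on chromosome 8 thus moved in opposite directions, while *Adam9*, next to *Adam32*, had a log2 fold change of 0.18. *Adam3* and *Adam21* did not pass (log2 fold changes -1.19 and -1.96, with intervals that include 0).

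**Figure D4:**
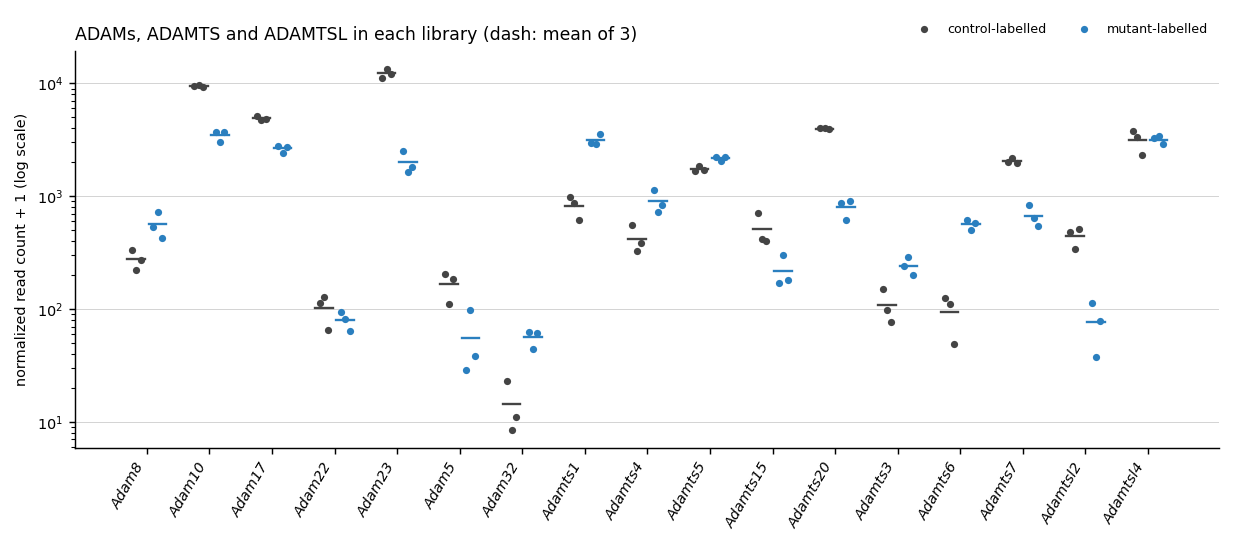
Normalized read count plus 1 (y axis, log scale) of the named ADAM, ADAMTS and ADAMTSL genes in each library, with grey points for the 3 control-labelled libraries, blue points for the 3 mutant-labelled ones and a dash for the mean of each group. *Adam10*, *Adam23* and *Adamts20* are lower in each mutant-labelled library, *Adamts1* and *Adamts6* are higher, and the groups of *Adam22* and *Adamtsl4* overlap.

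ADAMTS enzymes that cleave aggrecan, versican and related proteoglycans had 2 of 7 tested genes higher and 2 lower, against 13.9% and 10.4% of all tested genes. *Adamts1* rose from 976, 872 and 613 in the control-labelled to 2991, 2930.2 and 3571 in the mutant-labelled libraries (log2 fold change 1.97, SE 0.18, adjusted p = 1.1e-04). *Adamts4*, another aggrecanase, rose from 549.7, 323 and 381 to 1134, 725 and 835 (log2 fold change 1.11, SE 0.24, adjusted p = 0.0081), with replicate 1 the highest in both groups. *Adamts5*, the gene next to *Adamts1* on chromosome 16, had 1689, 1838 and 1701 against 2209.8, 2067 and 2228. The difference was small but without overlap (log2 fold change 0.32, SE 0.10, adjusted p = 0.039), and *Adamts9* was also higher by less than 2-fold (log2 fold change 0.76, SE 0.18, adjusted p = 0.013).

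In the same group *Adamts20* and *Adamts15* fell. *Adamts20*, the gene mutated in the belted mouse, whose coat lacks pigment in a band around the trunk, had 4012, 4013 and 3917 in the control-labelled and 877, 614 and 914 in the mutant-labelled libraries. The control-labelled values were nearly equal, and the mean was 4.97-fold lower in the mutant-labelled libraries (log2 fold change -2.33, SE 0.16, adjusted p = 2.4e-05). *Adamts15* fell from 712, 415 and 398 to 169, 298 and 181 (log2 fold change -1.22, SE 0.30, adjusted p = 0.015), and control-labelled replicate 1 was well above the other two. *Adamts8* did not pass, with a 95% interval of -1.38 to 1.86. Of the substrates, *Vcan*, which encodes versican, rose from 83.3, 69.9 and 35.5 to 141, 178 and 343 (log2 fold change 1.77, SE 0.45, adjusted p = 0.016). *Acan*, which encodes aggrecan, had 131, 53.9 and 112 against 22.5, 286 and 46.5, an uneven set in which mutant-labelled replicate 2 was the highest and replicate 1 the lowest of all libraries (95% interval -2.38 to 1.48). The brain proteoglycans *Bcan* and *Ncan* fell (log2 fold changes -2.58 and -1.67, adjusted p = 0.020 and 0.0021), and the other 5 matrix substrates did not pass. Of these 5, *Fbn2* was lower by less than 2-fold, without overlap (log2 fold change -0.74, adjusted p = 0.0080 with limma). *Bcan* had -3.21 without mutant-labelled replicate 2 and -1.90 without mutant-labelled replicate 1.

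Among the enzymes that trim procollagens, *Adamts3* rose from 149, 97.3 and 76.0 to 239, 288 and 198 (log2 fold change 1.20, SE 0.31, adjusted p = 0.018), without overlap. *Adamts2* and *Adamts14* did not pass (log2 fold changes -0.21 and 0.32). Of 9 other ADAMTS genes *Adamts6* rose and *Adamts7* fell, 11.1% each, near the 13.9% and 10.4% of all tested genes. *Adamts6* had 124, 109.6 and 48.2 in the control-labelled and 616, 502 and 584 in the mutant-labelled libraries, a fold of 6.03 (log2 fold change 2.69, SE 0.35, adjusted p = 6.9e-04). It overlaps 3 unnamed genes and *Adamts3* overlaps 1, all on their own strand, so the counting could split reads between them. *Adamts10*, its closest relative, was lower by less than 2-fold (log2 fold change -0.74, SE 0.16, adjusted p = 0.0081). *Adamts7*, which cleaves the cartilage protein COMP, fell from 2017.7, 2203 and 1969 to 837, 639 and 539 (log2 fold change -1.64, SE 0.17, adjusted p = 1.9e-04), with separate groups. *Adamts13* was too sparse for a narrow estimate, with a 95% interval of -5.38 to 0.50.

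ADAMTS-like proteins lack the proteinase domain, and 1 of 5 passed the threshold (20%, against 24.2% of all tested genes). *Adamtsl2*, which binds fibrillin microfibrils, fell from 477, 342 and 508 to 112, 36.7 and 78.1 (log2 fold change -2.65, SE 0.40, adjusted p = 0.0015). Every mutant-labelled value was under the lowest control-labelled one. *Adamtsl4*, another microfibril protein, had 3757, 3329.8 and 2304 against 3252, 3412 and 2879, with overlapping groups (95% interval -0.35 to 0.45). *Adamtsl1* was higher by less than 2-fold (log2 fold change 0.59, SE 0.19, adjusted p = 0.044), and *Adamtsl3* and *Adamtsl5* did not pass.

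Genes that activate, restrain or serve these proteinases were described from a list of 65, of which 63 were tested, 21 were higher and 10 lower (49.2%, against 24.2% of all tested genes), with a median log2 fold change of 0.26. The list was chosen with earlier results of these data known, so its shares are a description and no test. Of 8 activating proteases and their receptors 3 were higher and 1 lower, against 13.9% and 10.4% of all tested genes. *Plat*, tissue plasminogen activator, whose human promoter drives the Cre of the mutants, rose from 5623, 6438 and 5664 to 11999, 13559 and 14174 (log2 fold change 1.16, SE 0.10, adjusted p = 7.8e-05). The urokinase gene *Plau* and its receptor gene *Plaur* rose as well (log2 fold changes 1.27 and 2.88, adjusted p = 4.5e-04 and 4.8e-05). *Furin*, the convertase that cuts the prodomain of membrane MMPs and ADAMs, was higher by less than 2-fold, with 2521, 2242 and 2216 against 4615, 4407 and 4492 (log2 fold change 0.96, SE 0.09, adjusted p = 1.6e-04), and past it with libraries scaled to the same total (1.12) or without control-labelled replicate 1 (1.01). *Plg*, the plasminogen gene, rested on 14, 10 and 12 reads in the control-labelled and 0, 0 and 4 in the mutant-labelled libraries. It was past the threshold and lower with limma (log2 fold change -3.05, adjusted p = 0.040) but not with edgeR on the recovered reads (unadjusted p = 0.052), and DESeq2 kept the call. The log2 fold change was -2.66 without mutant-labelled replicate 1 or 2 and -3.82 without replicate 3, when no mutant-labelled read remained and the pseudocount set the value.

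Of 14 inhibitors and clearance receptors 4 were higher and 4 lower, against 13.9% and 10.4% of all tested genes, and 3 of the lower ones held after adjustment over all tested genes. *Thbs2*, a thrombospondin that takes part in the uptake of MMP2, rose from 32785, 29522 and 26360.5 to 154959, 153612 and 189265 (log2 fold change 2.49, SE 0.12, adjusted p = 5.5e-06). *A2m*, a broad proteinase trap of plasma, fell from 695, 908 and 1044 to 148, 76.2 and 91.0 (log2 fold change -3.09, SE 0.28, adjusted p = 1.1e-04). *Reck*, the membrane-anchored MMP inhibitor, was lower by less than 2-fold, with 2900.5, 2413 and 2357 against 1989, 1721 and 1724 (log2 fold change -0.49, adjusted p = 0.014). *Cd63*, the cell surface partner of TIMP1, rose from 10156, 11458 and 11125 to 21448, 20410.4 and 25179 (log2 fold change 1.03, SE 0.10, adjusted p = 1.7e-04), without overlap. It was just under 2-fold, at 0.96 on the log2 scale, when libraries were scaled to the same 75th percentile, and at 0.98 and 0.94 without control-labelled replicate 1 and without mutant-labelled replicate 3.

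Of 8 tested carriers of ADAM10 and ADAM17 1 passed the threshold (12.5%, against 24.2% of all tested genes). *Tspan17*, a tetraspanin that takes ADAM10 to the cell surface, fell from 7165, 8148 and 9201 to 3376, 2022 and 2533 (log2 fold change -1.65, SE 0.18, adjusted p = 2.8e-04), with separate groups. Of the other tetraspanins tested, *Tspan14* and *Tspan15* were lower by less than 2-fold (log2 fold changes -0.82 and -0.81, adjusted p = 7.4e-04 and 8.3e-04). *Tspan33* was higher by less than 2-fold (log2 fold change 0.87, adjusted p = 0.026), which became 1.04 and passed when libraries were scaled to the same total, and *Tspan5* did not pass (-0.13) and changed sign under that scaling. *Rhbdf2*, which carries ADAM17, had 7811, 7681 and 8047 against 6924, 4646 and 5745 and a log2 fold change of -0.46 (adjusted p = 0.033). *Frmd8*, which belongs to the same complex, was higher by less than 2-fold (0.41, adjusted p = 0.026), and *Rhbdf1* did not pass (0.10). Among 18 tested genes for proteins that are shed, 12 were higher and 1 was lower, where 13.9% and 10.4% of all tested genes were, and the median log2 fold change was 1.65. Of the higher ones, *Nrg1*, *Areg* and *Ereg* reached the mean required for a test only through the mutant-labelled group. The count is thus a description and no result about shed proteins. *Nrg1* had 0, 15.1 and 7.60 in the control-labelled and 957, 871 and 1121 in the mutant-labelled libraries (log2 fold change 7.56, SE 0.90, adjusted p = 4.0e-04). Its control-labelled values rested on 0, 16 and 6 reads, and the log2 fold change was 6.38 without control-labelled replicate 1 and 8.38 without control-labelled replicate 2. Under the other settings the log2 fold change of *Nrg1* ran from 5.91 to 8.75. Of the EGF receptor ligands, *Areg* and *Ereg* had no read in the control-labelled libraries and 40, 60 and 21 and 44, 116 and 56 in the mutant-labelled ones, so that no fold is given. *Hbegf* and *Btc* rose by 2.89 and 4.65 on the log2 scale, whereas *Tgfa* fell (log2 fold change -1.19). *Hbegf* went from 2123, 1789 and 2021 to 15188, 13346 and 15411, and the adhesion receptor *Vcam1* from 1105, 869 and 783 to 12141, 9011 and 12454. *Notch1*, *Ngfr* and *L1cam* did not pass (log2 fold changes -0.00290, -0.00223 and -0.24).

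How far these calls rest on single libraries was examined by leaving out each in turn. Of the 24 genes 14 passed the threshold in all 6 such fits, among them *Timp1*, *Adam10*, *Adam23*, *Adamts1*, *Adamts6*, *Adamts20*, *Mmp8* and *Mmp15*. Without mutant-labelled replicate 1, the deepest library, the number of higher genes was 9 in place of 15. In that fit *Mmp12* did not reach the mean required for a test. *Mmp9*, *Mmp13*, *Mmp3* and *Mmp27* kept log2 fold changes of 2.31, 2.58, 1.03 and 2.93 but had an unadjusted p above 0.05, and *Adamts4*, at 0.93, was under 2-fold. Leaving out mutant-labelled replicate 2 brought *Mmp17*, *Adam8* and *Mmp3* under 2-fold, to 0.88, 0.82 and 0.92 on the log2 scale. Control-labelled libraries decided others in the same way. *Adamts15* had -0.95 without replicate 1. *Adamts4* had 0.94 and *Adam8* 0.87 without replicate 2. *Adamts3* had 0.98 and *Mmp3* 0.90 without replicate 3. *Mmp27* passed in 1 of the 6 fits.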

How the data were processed

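The authors mapped paired-end reads of oriented poly-A cDNA to mm10 with STAR 2.4.0, counted those on constitutive regions of FAST DB genes and normalized the counts with the size factors of DESeq2. The deposited table holds this signal for 59485 genes, 35979 of them without a symbol, with no expression filter applied. The members and the lists of partner and marker genes were chosen with earlier results of these data known, and the promoter motifs after the values here were seen.

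log2(value + 1) was fitted with limma 3.58.1 (lmFit, eBayes with trend, R 4.3.3) for the 25802 genes with a mean of at least 10 in at least 1 group, without covariates. The Benjamini-Hochberg adjustment of p-values covers all of these genes. An exact two-sided permutation test of 3 against 3 libraries cannot give a p under 0.1. The labels and the study name the libraries as separate animals.

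The values are whole multiples of the value of 1 read (0.727 to 1.27, tolerance 0.1 reads) in 100% of cases, which gave back the reads for edgeR 4.0.16 and DESeq2 1.42.0 as alternatives. In mutant-labelled replicate 3 this step is so near to 1 (0.989) that an automatic test could not tell it from rounding and did not accept the recovery for that library, so the reads used there rest on the decimals of the values alone. Even numbers made up 74.9 to 76.2% of the recovered counts from 1 to 20, so reads are not independent and the counting interval of *Mmp12* covers counting error only. Alternatives were pseudocounts of 0.1 and 10, no filter, a minimum mean of 50, other scalings, eBayes without trend, an adjusted p, a replicate block and each library left out. The script was tested on simulated data with 200 changed genes. Of the 81 genes 15 overlap another gene on the same strand and 36 one on the opposite strand, and whether counting used the strand is not given in the sources used here. Values per library and result are shown for the genes past the threshold and for *Timp1* to *Timp4*, *Mmp2*, *Mmp9*, *Mmp14*, *Adam10*, *Adam17*, *Adam22*, *Adamts5* and *Adamtsl4*. Partner genes given with values are *Reck*, *Furin*, *Rhbdf2*, *Lgi4*, *Nrg1*, *Vcan*, *Acan* and *Plat* and, in each partner group, up to 3 past the threshold with the smallest p, and others were named after their values were seen. The values of 1 gene that this rule names are not reported here. Python 3.11.15, pandas 2.3.3, numpy 2.4.6, scipy 1.17.1 and matplotlib 3.10.9 were used.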

Additional observations from a re-analysis of the deposited data

How the results depend on the processing

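The number of genes past the threshold and higher was 11 to 16, in place of 15, under the other settings and 9 to 15 with 1 library left out, the lowest without mutant-labelled replicate 1, and the number lower was 9 under every other setting and 8 to 11 with 1 library left out. edgeR gave 13 higher and 9 lower genes, DESeq2 14 and 9, and an adjusted p at or under 0.05 gave 12 and 9. Partner genes past the threshold numbered 29 to 32 and 29 to 31, in place of 31, and the *Adar* log2 fold change stayed between 2.49 and 2.92. Of the 24 genes 19 kept their call under all other settings, and *Mmp27*, *Mmp3*, *Mmp13*, *Adam8* and *Mmp12* did not. Scaling to the same total moved the median over all tested genes from 0.03 to 0.20 on the log2 scale, and the share of higher among all calls from 57.3 to 66.4%. The genes that changed sign had not passed the threshold. *Adam19* (-0.0317) and *Adamtsl4* (-0.0183) did so with the same 75th percentile, *Timp4* (0.0752) and *Adamts18* (0.0634) with the same total, and *Acan* with edgeR (0.25) and DESeq2 (0.26), and the cause was not tested. Among partner genes named with an estimate near 0, *Tspan5* (0.0283), *Notch1* (0.161) and *Ngfr* (0.161) turned positive with the same total, *Notch1* (0.0128) and *Ngfr* (0.00634) also with edgeR and *Notch1* (0.00431) with DESeq2. With 1 library left out, log2 fold changes ran from -0.0829 to 0.160 for *Adam19*, -0.0345 to 0.347 for *Mmp28*, -0.0586 to 0.326 for *Adamts16*, -0.0550 to 0.237 for *Mmp14*, -0.11 to 0.60 for *Adamts12*, -0.16 to 0.20 for *Adamtsl4*, -0.45 to 0.39 for *Timp4*, -0.0157 to 0.317 for *Adam12*, -0.43 to 0.31 for *Adamts18*, -0.52 to 0.68 for *Adamts8*, -1.48 to 0.32 for *Acan*, -0.136 to 0.0840 for *Notch1*, -0.0649 to 0.0566 for *Ngfr* and -0.00933 to 0.174 for *Rhbdf1*.

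Whether the replicate numbers pair the samples is not given in the labels. The correlations of the deviations of same-numbered libraries were -0.06, -0.06 and 0.01. Each deviation is taken from a mean of 3 libraries, so these values cannot decide it. With a replicate block 15 genes were higher and 9 lower, 31 partner genes passed and the *Adar* log2 fold change was 2.72, so no count changed. Of the genes past the threshold, *Mmp12*, *Mmp13* and *Mmp27* rested on few reads, and *Adam1b*, *Adam28*, *Mmp10* and *Mmp21* had reads but did not reach the mean required for a test.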
